A study of Bactrocera dorsalis with 16 samples.

Results

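The genes described here are 404 genes of the oriental fruit fly, Bactrocera dorsalis, that carry no product name and whose transcripts were far lower in the ovary at days 9 and 13 of adult life than at day 1 or 5. They were chosen among 13759 genes by 2 conditions. The first was a description that was missing or said uncharacterized and nothing else, which held for 5846 genes. The second was a level rule on ovary means: the larger of the day 1 and day 5 means had to be at least 10 FPKM (fragments scaled to transcript length and to the size of the library) and at least 4 times both the day 9 mean and the day 13 mean. The ovary values therefore chose the genes, and their fall with age in the ovary is given as a description, without a test. The fat body values played no part in the choice and were tested.

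All libraries came from adult females reared on a diet of yeast extract and sugar, with no treatment, and RNA was taken from ovary or fat body. Each tissue was sampled at 1, 5, 9 and 13 days after eclosion, the emergence of the adult fly, with 2 libraries per tissue and age and 16 in all. The design text calls them biological replicates and does not say how many flies each library pooled. With n = 2 in each group, the p-values set a change against the spread between these libraries. That spread was estimated over all 8 groups, ovary included, and moderated across genes.

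In flies, the female often emerges with immature ovaries, and egg chambers then pass through growth, yolk uptake and eggshell formation. An ovary holds germline cells and the follicle cells that build the eggshell, together with muscle sheaths, tracheae and nerves. Yolk precursors are made in the fat body, a storage and metabolic tissue that serves the roles of liver and adipose tissue in insects. Transcripts of yolk genes were also abundant in the ovary here, where the means of 10 such genes summed to 18444 FPKM at day 9. Genes without a product name are those for which sequence comparison usually gave the annotators no informative match, so their roles are not known from the table. They are called here by the table's gene identifier, with the LOC number of the uncharacterized protein where one is given.

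The depth of the libraries is unknown, since the table gives FPKM alone, so no counting intervals can be given. Relative depth, read from the steps between low values with ovary day 1 replicate 1 set to 1, was between 0.859 and 1.11, and 7425 to 9054 genes reached 1 FPKM in a library. Replicates correlated across genes, which are not independent, at r from 0.919 in ovary day 1 to 0.966 in ovary day 13. The tissue labels were checked against marker lists made from product names. The 8 germline markers summed to between 515 and 1106 FPKM in the ovary libraries and between 26.4 and 53.0 FPKM in the fat body libraries. The 7 chorion and vitelline membrane genes summed to between 7.17 and 17.1 FPKM in the ovary at days 1 and 5 and between 3032 and 11146 FPKM at days 9 and 13. No marker list had a gene at 0 in every library. Ovary day 1 replicate 1 stood apart in one respect: 35 genes were at 10 FPKM or more in it and at least 10 times any other ovary library, against 0 to 8 genes in each of the others, a contrast chosen after the values were seen. Of these 35, 14 are among the 404 genes described here, and results that rest on that library are given with both values.

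The 404 genes were of both kinds of unnamed gene, 199 with no description and 205 described as uncharacterized. Of all unnamed genes, 6.91% met the level rule, and of the other genes 6.39%. Among genes that reached 10 FPKM at day 1 or 5 in the ovary, 26.8% of 1506 unnamed genes met the rule, and 12.4% of 4087 others. Gene models known only from the authors' transcript assembly made up 176 of the 404, or 43.6%, while they made up 27.6% of unnamed genes and 11.7% of all genes. These sets were not matched for the level of 10 FPKM that the rule asks for, so nothing is read from the difference. A single transcript was listed for 236 of them. A LOC number of the species' own annotation was given for 169, of which 161 were found in the RefSeq gene table, all of them protein coding. RefSeq gives a symbol other than the LOC number to 2, MSTRG.3678 (Frpd4) and MSTRG.4238 (Mfd6a).

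In the ovary, the median of the 404 genes was 20.1 FPKM at day 1, 12.3 at day 5, 2.21 at day 9 and 1.35 at day 13. Over all 10213 genes tested, the ovary medians at the same ages were 10.1, 9.02, 8.15 and 8.51 FPKM. Summed over the 404 genes, their share of all FPKM in the ovary was 5.94% and 6.50% in the day 1 libraries and 3.58% and 3.48% at day 5. It was 0.676% and 0.574% at day 9 and 0.415% and 0.429% at day 13, so the share was lower at each later age in both libraries. In a whole tissue, fewer cells of a type and less RNA per cell cannot be told apart. The median fold from the early level to the higher late mean was 10.9 over the 400 genes with a late value above 0, and 215 genes reached 10-fold. Few genes were absent later: 100 had means under 1 FPKM at both late ages and 4 were listed at 0 in all 4 late libraries, so lost from the ovary holds for a minority and strongly lowered for the rest. Both libraries of the age of highest level were above all 4 late libraries for 380 genes. The same held for 49.6% of all genes tested at their own higher early age, and nothing is read from the count because the rule used these values. All 4 early libraries were above all 4 late ones for 330 genes, and for 32.3% of genes tested. The day 13 mean was below the day 9 mean for 324 genes (80.2%). This was the case for 46.8% of all genes tested, but the rule used both means, so nothing is read from the difference.

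**Figure D1:**
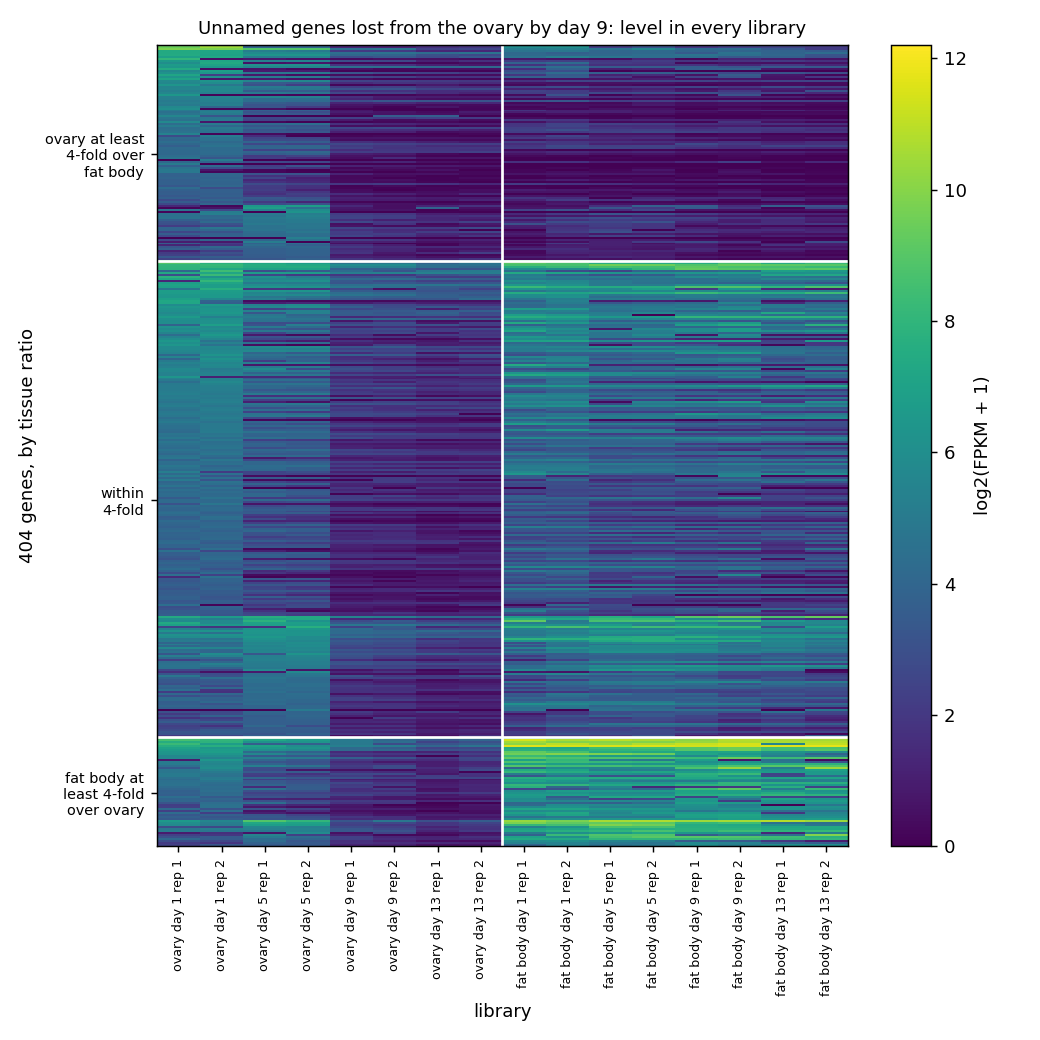
Level of each of the 404 genes (rows) in each of the 16 libraries (columns), as log2 of FPKM plus 1. Rows are grouped by the ratio of the early ovary level to the highest fat body group mean. The ovary columns darken from day 5 to day 9 by construction, while the fat body columns of the middle and lower groups stay bright at all ages.

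The transcript with the highest early level was MSTRG.9401, which has no description. It stood at 1604 and 1942 FPKM in the ovary at day 1, 879 and 825 at day 5, 168 and 139.9 at day 9, and 70.0 and 46.1 at day 13. In the fat body it lay between 4.62 and 15.4 FPKM in all 8 libraries, so every ovary library was above every fat body library. MSTRG.9828 (LOC105231063) had ovary levels of 905 and 897 FPKM at day 1, 474 and 459 at day 5, 22.6 and 26.5 at day 9, and 4.32 and 5.13 at day 13. Its fat body levels were 35.4 and 40.1 FPKM at day 1 and 9.71 and 3.46 at day 13. By day 13 the 2 tissues overlapped for this gene. MSTRG.4910, without description, was at 679.7 and 1314 FPKM in the ovary at day 1 and at 13.7 and 14.4 at day 5, and it lay between 1.17 and 2.67 in the late libraries. MSTRG.5713, an uncharacterized protein with an abhydrolase domain in its description, the fold of many esterases and lipases, was at 436 and 530.0 FPKM at day 1, 199 and 192 at day 5, 17.6 and 17.0 at day 9 and 12.7 and 12.6 at day 13. Replicates of these 4 genes agreed within 2-fold in every ovary group. Early levels of 100 FPKM or more were reached by 45 of the 404 genes, and 171 were under 20 FPKM.

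Most of the genes were highest in the ovary at day 1: 302 had their larger early mean there, or 74.8%, and 102 had it at day 5. A higher mean at day 1 than at day 5 was found for 58.4% of all genes tested, 60.3% of unnamed genes tested and 72.5% of the 506 genes with a product name that met the same level rule. The rule fixes neither age, but it uses the larger of these values. Both day 1 libraries were above both day 5 libraries for 256 genes, beside 38.4% of genes tested, and the reverse held for 66, beside 24.2%. A difference of at least 4-fold was seen for 103 genes in favour of day 1 and for 18 in favour of day 5, and 150 genes lay within 2-fold.

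The steepest early falls were nearly complete by day 5. MSTRG.3135 (LOC105222643) was at 64.9 and 168 FPKM at day 1 and at 0.514 and 0.676 at day 5. MSTRG.5786, without description, was at 54.9 and 114 FPKM at day 1, 0.922 and 0.965 at day 5, and under 0.2 in every late library. Both genes were therefore high at a single ovary age. MSTRG.6061 (LOC105226324) was at 84.3 and 22.9 FPKM at day 1 and at 0.380 and 0.110 at day 5, and MSTRG.6849 (LOC105227331) and MSTRG.3898 (LOC105223593), with gene ontology terms for chitin binding, also ranked among the 6 largest falls by day 5, with day 1 libraries at 151 and 13.8 and at 19.4 and 93.4 FPKM. Genes of the opposite order peaked at day 5. MSTRG.6701 was at 1.58 and 0.179 FPKM at day 1, 88.0 and 112 at day 5, 1.61 and 0.438 at day 9 and 1.38 and 2.32 at day 13. MSTRG.651 was at 6.04 and 5.26 FPKM at day 1 and 45.3 and 36.9 at day 5, and MSTRG.3638 at 3.96 and 7.98 and then 40.4 and 40.1. The 3 genes have no description, and their day 5 libraries did not overlap those of any other ovary age. MSTRG.1025, MSTRG.730 and MSTRG.7729 also ranked high by their day 5 mean, but the means rested on unequal libraries. These were at 119.5 and 22.6 FPKM for MSTRG.1025, 0 and 37.2 for MSTRG.730, and 2.37 and 207 for MSTRG.7729.

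Agreement between the 2 libraries of the age of highest level was uneven. They lay within 2-fold for 320 of the 404 genes. In 47 genes one library was at least 4-fold over the other, in 20 one was under 1 FPKM, and in 6 one was listed at 0. Of the 47, 33 had no description. MSTRG.10099 was at 262 FPKM in ovary day 1 replicate 1 and at 0.414 in replicate 2, and MSTRG.9611 was at 174 and 0.376. In the same library, the genes with the neighbouring identifiers MSTRG.10098 and MSTRG.10100, both serine proteases 1/2-like, stood at 34.5 and 130.3 FPKM and at most at 0.878 in the other ovary libraries. The 15 genes with a product name that were high in that library alone also included a carboxypeptidase B-like, an aminopeptidase N-like and 2 alkaline phosphatase genes. MSTRG.1845 and MSTRG.1846 have consecutive identifiers and no description. The first was at 33.8 FPKM in ovary day 1 replicate 2 and the second at 31.0 in replicate 1, and each was listed at 0 in the other 15 libraries. Without ovary day 1 replicate 1, 365 of the 404 genes still met the rule, and without replicate 2, 367 did. With replicate 1 of each age alone, 352 of the 404 met it, with replicate 2 alone 350, and with each of them 299.

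**Figure D2:**
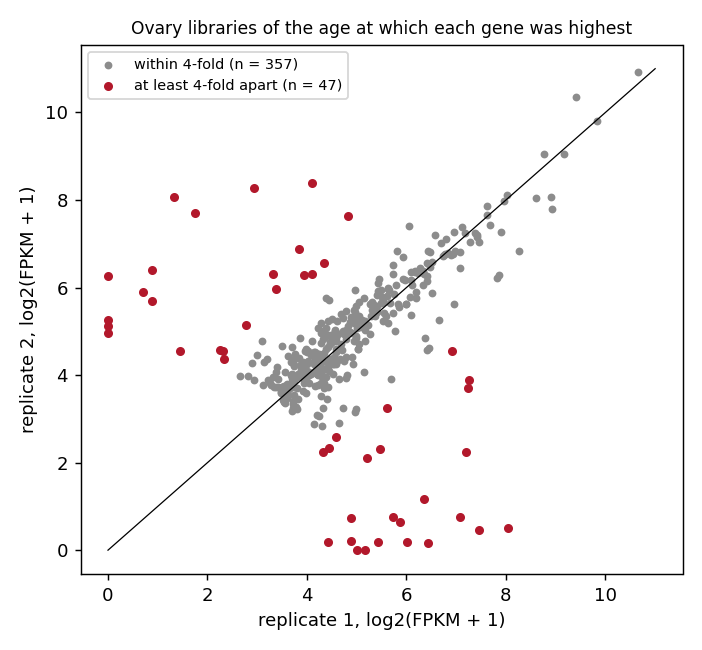
Replicate 1 against replicate 2 of the ovary age at which each of the 404 genes was highest, as log2 of FPKM plus 1, with a line of equality. Grey points are the 357 genes within 4-fold, and red points the 47 genes with 1 library at least 4-fold over the other.

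Few of these genes were restricted to the ovary. Their median in the fat body was 12.9 FPKM at day 1, 10.1 at day 5, 9.69 at day 9 and 6.57 at day 13. Over all genes tested, the fat body medians at these ages were 5.67, 4.91, 4.53 and 4.22 FPKM. Those genes were not matched for the ovary level of 10 FPKM that the rule asks for, so nothing is read from the difference. A mean of at least 1 FPKM in a fat body group was reached by 362 of the 404 genes, and of at least 10 FPKM by 253. The remaining 42 were under 1 FPKM in every fat body group, and 4 were listed at 0 in all 8 fat body libraries. The early ovary level was at least 4-fold over every fat body group in 109 genes (27.0%), within 4-fold of the highest fat body group in 240 (59.4%), and at least 4-fold below it in 55 (13.6%). These limits were chosen after the values were seen. Of the 506 named genes that met the level rule, 110 (21.7%) were at least 4-fold over fat body and 79 (15.6%) at least 4-fold below it. Across the 404 genes, the early ovary level and the highest fat body mean had a Spearman rho of 0.454, as a description over genes measured in the same libraries. The early ovary level was above every fat body group for 252 genes.

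**Figure D3:**
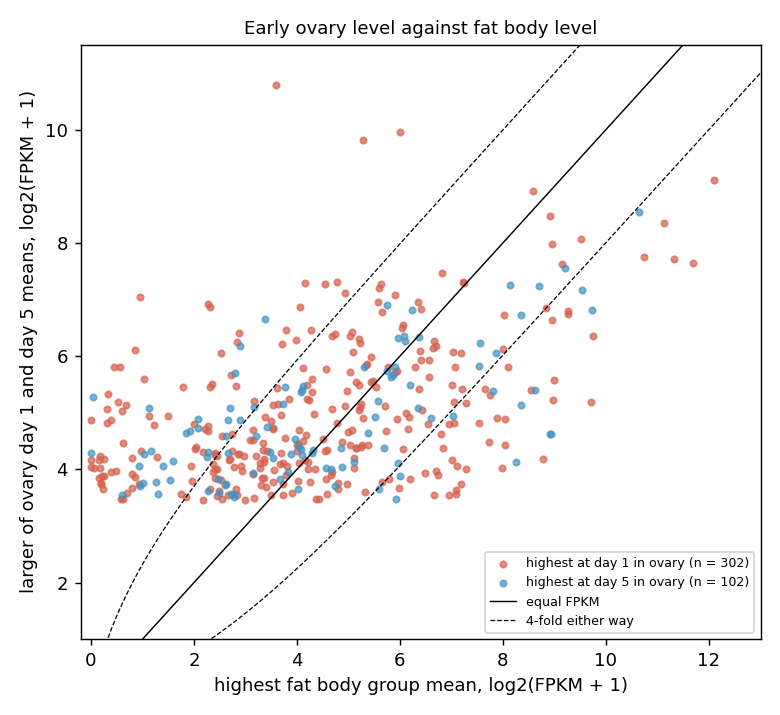
Early ovary level (the larger of the day 1 and day 5 means) against the highest fat body group mean, both as log2 of FPKM plus 1, 1 point per gene, coloured by the ovary age of the higher mean. The solid line marks equal FPKM and the dashed lines a 4-fold ratio: 109 genes lie above the upper dashed line and 55 below the lower one.

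Several of the genes were among the more abundant transcripts of the fat body. MSTRG.2435 (LOC108977308), with gene ontology terms for heme binding and oxidoreductase activity, lay between 2678 and 3423 FPKM in all 8 fat body libraries. In the ovary it was at 195 and 202 FPKM at day 1, 129 and 62.1 at day 5, 37.1 and 34.1 at day 9 and 15.4 and 24.7 at day 13. Its fat body libraries overlapped across all ages over which its ovary level dropped. MSTRG.10889 (LOC105232391) lay between 1123 and 2836 FPKM in the fat body and was at 389.8 and 262 FPKM in the ovary at day 1. MSTRG.10835 and MSTRG.6412, both without description, lay between 867 and 1781 FPKM and between 983 and 1819 FPKM in the fat body. MSTRG.10835 was highest in the ovary at day 5, at 481 and 266 FPKM, and MSTRG.6412 at day 1, at 197 and 233 FPKM. None of these 4 genes passed the test in the fat body between the late and the early ages (adjusted p of 0.058 for MSTRG.6412 and above for the others, limma). MSTRG.3294 lay between 1133 and 2826 FPKM in 7 fat body libraries and at 46.1 in day 13 replicate 1. The 404 genes together held between 6.66% and 8.12% of all FPKM in each fat body library, with no order by age. MSTRG.6515 (LOC105226894), MSTRG.2015 (LOC105233753) and MSTRG.2309 (LOC105234111) had day 1 means within 2-fold of each other in the 2 tissues. MSTRG.2309, with gene ontology terms for the A band and thick filament assembly of muscle, was at 249.8 and 252 FPKM in the ovary and at 199 and 300.2 in the fat body.

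**Figure D4:**
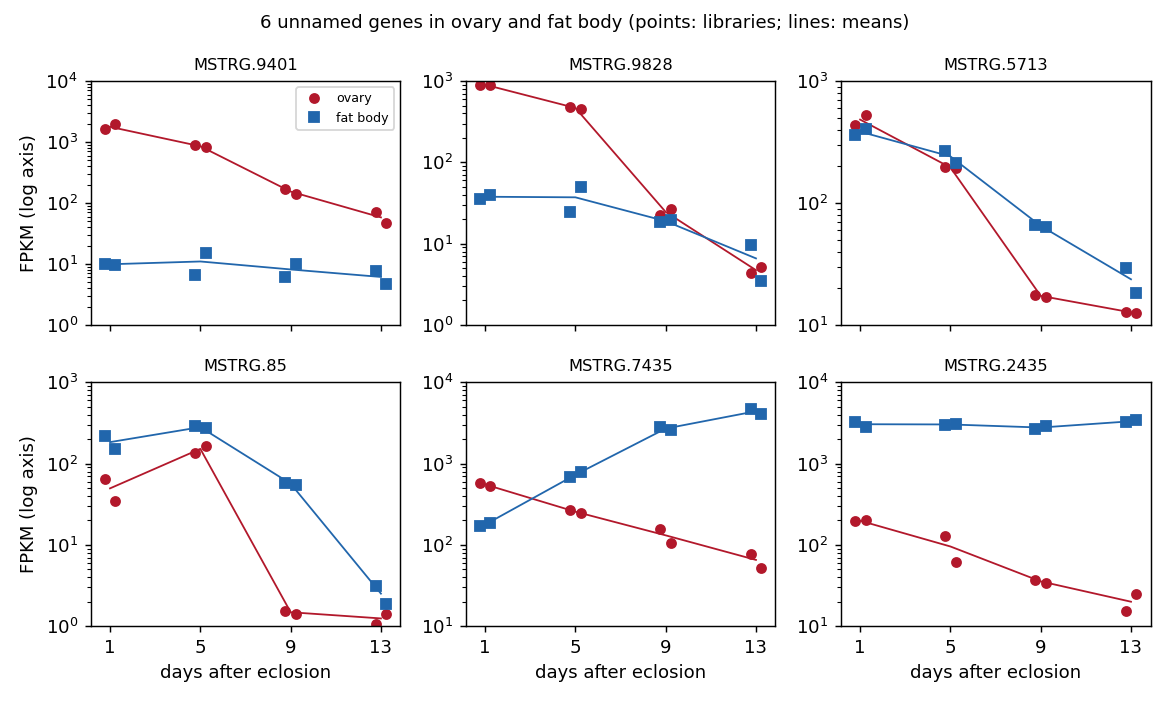
FPKM on a log axis against days after eclosion for 6 of the genes in ovary (red circles) and fat body (blue squares), with 1 point per library and lines through the means. MSTRG.9401 and MSTRG.9828 are higher in the early ovary, MSTRG.5713 and MSTRG.85 fall in both tissues, MSTRG.7435 rises in the fat body, and MSTRG.2435 lies between 2678 and 3423 FPKM there.

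The fat body libraries, which the rule did not use, were compared between days 9 and 13 and days 1 and 5. More of the genes fell than rose: 137 of 404 were lower at the late ages and 38 were higher, at a Benjamini-Hochberg adjusted p under 0.05 in limma on log2 of FPKM plus 1. Of all genes tested, 21.1% were called lower and 7.8% higher. Among the 362 genes present in fat body, 37.0% were lower and 10.5% higher, beside 23.6% and 8.83% of the 8992 genes present there. The spread behind these calls was estimated from the ovary libraries too. In a fit to the fat body libraries alone, 116 of the 362 were lower and 33 higher, beside 1679 and 676 of the 8992. The median change was -0.32 on the log2 scale for the 404 genes, -0.16 for all genes tested and -0.38 for the 506 named genes that met the same ovary rule, of which 174 were lower and 51 higher. Median-of-ratios scaling moved the median of all genes from -0.16 to 0.04 and that of the 404 genes from -0.32 to -0.14, and changes are relative to that shift. With quantile normalization the medians were 0.02 and -0.19. With median-of-ratios scaling 63 of the genes were higher and 96 lower. The share of higher calls was then 39.6% in place of 21.7%, while that share over all genes went from 27.0% to 55.7%. With quantile normalization 42 of the genes were higher and 96 lower, a share of 30.4%, beside 48.7% over all genes. Without fat body day 5 replicate 1, 25 of the genes were higher and 110 lower. The late libraries lay wholly below the early ones for 94 of the genes, beside 15% of genes tested, and wholly above for 23, beside 4.42%.

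The calls were also counted by tissue class. Of the 109 genes at least 4-fold higher in the early ovary, 30 were lower late in the fat body and 1 was higher. Of the 240 within 4-fold, 93 were lower and 23 higher. Of the 55 at least 4-fold higher in fat body, 14 were lower and 14 higher, but the classes were defined with the same fat body values, and the difference between them was not tested.

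**Figure D5:**
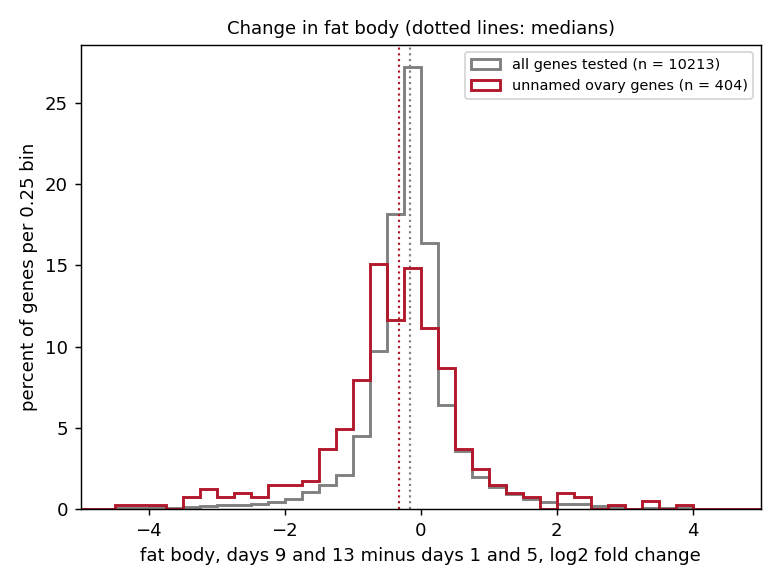
Percent of genes per bin of 0.25 in log2 fold change in the fat body, days 9 and 13 minus days 1 and 5, for the 404 unnamed genes (red) and all 10213 genes tested (grey). Dotted lines mark the medians of -0.32 and -0.16, and the red curve is the heavier one below -1.

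The genes that fell most in the fat body are described next. The rule fixed their ovary fall, so nothing is read from the shared direction. MSTRG.10479, without description, was at 50.2 and 90.0 FPKM in the fat body at day 1, 36.9 and 29.1 at day 5, 1.07 and 1.52 at day 9 and 1.75 and 1.75 at day 13. All late libraries were far below all early ones, and the level fell by 4.26 ± 0.21 (SE) on the log2 scale (adjusted p = 3.9e-07, limma). MSTRG.85 was at 217 and 151 FPKM in the fat body at day 1, 291 and 271 at day 5, 58.2 and 55.2 at day 9 and 3.16 and 1.87 at day 13. It fell by 4.0 ± 0.20 between the early and late ages (adjusted p = 4.6e-07, limma), and in the ovary it had gone from 137 and 167 FPKM at day 5 to 1.56 and 1.41 at day 9. At day 9 its ovary libraries were thus near 1 FPKM while its fat body libraries still stood above 50 FPKM. MSTRG.10945 (LOC105232493), with gene ontology terms for chitin binding and the extracellular region, was at 739 and 988 FPKM in the fat body at day 1, 891 and 711 at day 5, 145 and 97.8 at day 9 and 50.8 and 14.8 at day 13. It fell by 3.82 ± 0.34 (adjusted p = 2e-05, limma). MSTRG.5713 fell by 2.93 ± 0.14, from 362 and 407 FPKM at day 1 to 29.1 and 18.2 at day 13 (adjusted p = 2.9e-07, limma). MSTRG.3056, MSTRG.4232 and MSTRG.10826, all without description, fell by 3.26, 3.25 and 3.23 on the log2 scale. In all, 26 of the 137 genes fell by at least 2 on the log2 scale.

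A smaller set rose in the fat body, against the direction that the rule fixed in the ovary. MSTRG.7435 (LOC105228070) was at 169.7 and 186 FPKM in the fat body at day 1, 678 and 781 at day 5, 2839 and 2558 at day 9 and 4736 and 4083 at day 13. In the ovary it was at 577 and 532, 269 and 244, 157 and 105, and 78.2 and 52.7 FPKM at the same ages. The groups did not overlap in the fat body at any age, and the late ages were 3.26 ± 0.15 higher on the log2 scale (adjusted p = 2.9e-07, limma). At day 1 the ovary level was above the fat body level, and from day 5 on it was below. MSTRG.7433 (LOC105228069) was at 63.5 and 64.6 FPKM in the fat body at day 1, 139 and 279.5 at day 5, 634 and 501 at day 9 and 471 and 566 at day 13, and it was 2.25 ± 0.21 higher late (adjusted p = 2.5e-05, limma). MSTRG.5780 (LOC105225959) went from 92.9 and 80.3 FPKM at day 1 to 442 and 648 at day 13 and was 2.20 ± 0.21 higher late (adjusted p = 2.8e-05, limma). MSTRG.3972, without description, lay between 12.5 and 19.6 FPKM in the early fat body libraries and between 63.4 and 112 in the late ones, and was 2.41 ± 0.32 higher (adjusted p = 0.0003, limma). In the ovary it was listed at 0 at day 13. Its neighbours by identifier are MSTRG.3973, also one of the 404 genes, and then MSTRG.3974, a vitellogenin-1-like gene, named after the yolk precursor. MSTRG.3974 itself met the level rule in the ovary. MSTRG.8728 was 3.94 ± 0.59 higher late (adjusted p = 0.00074, limma), but with fat body day 13 libraries at 30.1 and 303 FPKM, the lower of which is close to the highest early library at 30.0. MSTRG.3477 (LOC105223063), with gene ontology terms for response to starvation and glucose and triglyceride homeostasis, was 2.77 ± 0.71 higher (adjusted p = 0.015, limma), and the call was lost without fat body day 13 replicate 2 (adjusted p = 0.057, limma, with a range from 0.0049 to 0.057 over all alternatives). Its ovary day 1 libraries were at 13.3 and 118 FPKM.

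The fat body was also compared by single steps of age. From day 1 to day 5, 72 of the genes were lower and 26 higher, beside 10.7% and 3.8% of all genes tested. From day 5 to day 9, 40 were lower and 24 higher, beside 5.6% and 5.53%, and from day 9 to day 13, 33 were lower and 5 higher, beside 5.42% and 1.73%. The share of higher calls rose from 26.5% to 43.6% with median-of-ratios scaling and to 39.0% with quantile normalization in the first step, while over all genes tested it rose from 26.1% to 50.2% and 48.2%. In the last step it rose from 13.2% to 27.9% with median-of-ratios scaling, and from 24.2% to 40.7% over all genes. Counts of the steps depended on single libraries. In the first step, 12, 14 and 10 genes were higher and 42, 33 and 38 lower without fat body day 1 replicate 1, day 5 replicate 1 and day 5 replicate 2. In the second, lower calls no longer outnumbered higher calls without day 5 replicate 1 or day 5 replicate 2. Fewer were lower without day 9 replicate 2. With fat body libraries alone, 17 were higher and 19 lower in this step. In the last, 18 and 16 were lower without day 9 replicates 1 and 2. The count of higher genes in the last step was 2 without day 13 replicate 1, and 3 without any one of fat body day 5 replicate 1, day 5 replicate 2, day 9 replicate 1, ovary day 9 replicate 1 and ovary day 9 replicate 2.

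The first step in the fat body was also counted by the age at which a gene was highest in the ovary. Of the 302 genes highest at day 1 in the ovary, 70 were lower and 7 higher at day 5 in the fat body. Of the 102 highest at day 5, 2 were lower and 19 higher, and their median change was 0.54 against -0.46 on the log2 scale. The day of the higher ovary mean comes from other libraries than these, and the difference between the 2 sets was not tested. Over all genes tested, 10.7% were lower and 3.8% higher in this step, but those calls were not split by ovary age. Whether the contrast is particular to these genes or holds for genes in general was therefore not tested. MSTRG.4232 went from 177 and 77.4 FPKM in the fat body at day 1 to 1.21 and 1.21 at day 5 (log2 change -5.74 ± 0.35, adjusted p = 1.2e-05, limma), and from 34.4 and 53.6 to 0.715 and 0.647 FPKM in the ovary. MSTRG.4910 went from 61.1 and 64.6 to 3.73 and 7.87 FPKM in the fat body (-3.30 ± 0.33, adjusted p = 0.00026, limma). MSTRG.10826 went from 57.4 and 50.3 to 5.80 and 4.82 FPKM in the fat body (-3.12 ± 0.18, adjusted p = 9.1e-06, limma) and from 62.3 and 48.0 to 5.00 and 4.44 in the ovary, nearly the same levels. In these 3 genes both tissues dropped in the same step. MSTRG.651 rose from 39.5 and 76.5 to 397 and 390.1 FPKM in the fat body (2.82 ± 0.30, adjusted p = 0.00032, limma). MSTRG.3638 rose from 1.06 and 4.19 to 15.9 and 15.8 FPKM (2.36 ± 0.45, adjusted p = 0.0072, limma). MSTRG.2520 rose from 128 and 66.0 to 375 and 526 FPKM (2.26 ± 0.42, adjusted p = 0.0065, limma), a call lost without day 5 replicate 2. These 3 genes were also highest in the ovary at day 5.

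In the later steps, MSTRG.7264 rose in the fat body at day 9 alone, from 7.11 and 7.33 FPKM at day 5 to 186 and 75.1, and was back at 4.84 and 19.2 at day 13 (log2 change at day 9 of 3.86 ± 0.63, adjusted p = 0.0033, limma). MSTRG.6882 went from 3.94 and 5.02 to 90.5 and 23.4 FPKM between days 5 and 9 (3.12 ± 0.59, adjusted p = 0.0066, limma), after 56.3 and 19.0 at day 1. Its call was lost without day 5 replicate 1 and in a fit to the fat body libraries alone. MSTRG.8728 rose by 4.08 ± 0.84 in this step (adjusted p = 0.011, limma), and its call was lost without day 5 replicate 2 or day 9 replicate 2 and with fat body libraries alone. Of genes that fell at day 9, MSTRG.3051 went from 9.11 and 5.14 to 0.0677 and 0.292 FPKM (-2.74 ± 0.27, adjusted p = 0.00017, limma), and MSTRG.10479 and MSTRG.10945 fell by 3.89 and 2.73. At day 13, MSTRG.201 went from 272 and 344 to 22.3 and 20 FPKM (-3.79 ± 0.28, adjusted p = 0.00011, limma) and MSTRG.85 fell by 4.06 ± 0.28. MSTRG.9071 was at 11.1 and 12.8 FPKM at day 9 and listed at 0 in both day 13 libraries, and its call was lost without any one of these 4 libraries. The genes higher at day 13 were MSTRG.2936, MSTRG.5045 and MSTRG.6382, the last at 31.5 and 27.2 FPKM at day 9 and 60.1 and 60.2 at day 13. The call of MSTRG.6382 was lost under 18 of 25 other settings, among them those without any one fat body library. That of MSTRG.2936 was lost without day 9 replicate 2 or either day 13 library, and that of MSTRG.5045 without day 13 replicate 1. With fat body libraries alone, the calls of MSTRG.2936, MSTRG.5045 and MSTRG.9071 were lost as well.

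Gene ontology terms, which follow the description column, were present and informative for 114 of the 404 genes. The terms are counted here without a test of enrichment. Extracellular region was given for 11 (9.65%, beside 4.08% of all genes with informative terms) and extracellular space for 8 (7.02% beside 2.45%). Chitin binding was given for 5 genes, MSTRG.10945, MSTRG.3898, MSTRG.6849, MSTRG.11053 and MSTRG.5288, or 4.39% beside 0.979%. Mesoderm development was given for 6 (5.26% beside 0.776%), muscle attachment for 5 (4.39% beside 0.454%) and the Z disc, the anchor of muscle thin filaments, for 4 (3.51% beside 0.406%). Terms outside muscle had similar shares. Epithelial cell migration of the open tracheal system was given for 5 (4.39% beside 0.418%) and cell morphogenesis for 5 (4.39% beside 0.621%). Named genes that met the same level rule and had informative terms numbered 464. Of these, 37 had extracellular region, 35 extracellular space, 10 chitin binding and 14 mesoderm development. Muscle attachment was given for 3 of them, the Z disc for 8, the tracheal term for 2 and cell morphogenesis for 0. Other terms were less frequent than among all genes, as nucleus with 5 (4.39% beside 15.3%) and integral component of membrane with 11 (9.65% beside 11.4%). MSTRG.8073 (LOC108965280) carried muscle attachment and Z disc terms together with terms for egg chamber growth and oocyte axis specification.

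Some of the genes had neighbouring identifiers. The identifiers largely follow the order of the annotation: 79.9% of 5559 consecutive identifiers had annotation numbers that differed by at most 2. Of the 404 genes, 75 (18.6%) fell into 35 runs of consecutive identifiers, in 40 pairs, the longest from MSTRG.8072 to MSTRG.8075. Of the 773 positions next to one of the genes, 10.3% held another, while the genes made up 3.75% of the 10786 such identifiers. Named genes that met the level rule held 7.50% of these positions and made up 4.69% of the identifiers. In 4 pairs both identifiers carried the same product, as MSTRG.4725 and MSTRG.4726 (both LOC105224589), so a pair can be 1 gene split by the assembly. In the fat body, over 8 libraries, the median r of log2 levels was 0.586 over the 37 pairs with both genes present and 0.136 over all pairs of the 362 genes, as a description chosen after the values were seen. MSTRG.4909 and MSTRG.4910, both without description, had a fat body r of 0.913, and MSTRG.3022 and MSTRG.3023 one of -0.768. The pairs share libraries and may share reads where models overlap.

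Named genes that met the same level rule in the ovary numbered 506, and the pathway and marker lists give their kinds. Of the 39 tested muscle genes, 20 met the rule, among them actin-2, myosin heavy chain, troponins and titins, and the list summed to between 3924 and 7216 FPKM in the early ovary libraries and between 743 and 1540 in the late ones. Of the 10 yolk genes, 5 met it, all vitellogenin-like, such as MSTRG.3980 at 912 ± 167 and 2222 ± 214 FPKM at days 1 and 5 and 31.6 ± 2.8 and 15.9 ± 3.8 at days 9 and 13 (mean ± SD, n = 2), while the yolk list as a whole was higher late. Of cytochrome P450 genes 16 of 66 met it, of serine proteases and their inhibitors 14 of 76, of eggshell and cross-linking enzymes 6 of 29, and of cuticle and chitin genes 5 of 51. Of the fat body markers 4 of 17 met it, of gut markers 4 of 29, of trachea and cuticle markers 3 of 32, of hemocyte markers 1 of 5, and of germline, follicle and neuron markers none of 7, 6 and 12. In the ovary, the fat body list summed to between 1031 and 1510 FPKM early and between 644 and 746 late, the trachea and cuticle list to between 1051 and 1600 and between 527 and 731, and the hemocyte list to between 75.1 and 113 and between 48.3 and 53.1. The gut list was higher late, between 3603 and 5207 FPKM beside 374 to 1132. The part of these tissues in the fall of the 404 genes was not tested. The chorion and vitelline membrane sums also moved with age, as given above. With median-of-ratios scaling 265 of the 404 genes met the rule.

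The named genes whose 8 ovary libraries followed the mean profile of the 404 genes most closely, by Pearson r, were inositol oxygenase (MSTRG.5913, r = 0.998), which was at 106 FPKM at day 1 and 4.20 at day 13, and the transcriptional activator Pur-beta (MSTRG.575, r = 0.998), which went from 52.3 to 27.0 FPKM and does not meet the rule. Leukotriene A-4 hydrolase (MSTRG.3827) and xaa-Pro aminopeptidase 2 (MSTRG.10416) each had an r of 0.997. At the edges of the rule, MSTRG.6089 and MSTRG.2529 were just inside at early levels of 10.01 and 10.03 FPKM, and MSTRG.2958 and MSTRG.723 just outside at 9.97 and 9.94. By fold, MSTRG.4526 and MSTRG.2341 were inside at 4.02 each, and MSTRG.3658 and MSTRG.781 outside at 3.99 and 3.94.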

How the data were processed

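The authors deposited 1 table of FPKM for 13759 genes in 16 libraries, with a product description, a symbol column and gene ontology terms. Bowtie 0.12.2, StringTie 1.3.0 and HISAT2 2.0 are listed in the submitters' processing notes with no step assigned, beside the build mm8, which is of the mouse. The fly assembly is not given in the sources used here, so no positions are printed. The symbol column was not used: of 134 genes with the term for ribosome constituents, 101 are ribosomal by description and 1 by symbol. Total reads are unknown, and FPKM is a share of each library, so a rise of abundant transcripts lowers the rest. A value of 0 may be a failed estimate.

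Genes whose description mixes uncharacterized with another product were left out, 5 of which met the level rule. The 10213 genes whose mean reached 1 FPKM in any of the 8 groups were tested as log2 of FPKM plus a pseudocount of 1, which understates the change of low genes. The test was limma 3.58.1 in R 4.3.3, with trend and robust moderation, 1 coefficient per group, all 16 libraries and Benjamini-Hochberg adjustment over all genes. It was tested on simulated data. All 404 genes passed the filter through their ovary level, so counts over the 362 present in fat body are given too. Other steps used numpy 2.4.6, pandas 2.3.3 and matplotlib 3.10.9 under Python 3.11.15.

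The genes, lists and rules were chosen with earlier results of these data known. Genes named are the 10 with the highest early ovary level, the 6 with the largest fall and with the largest difference between days 1 and 5 in each direction, the 6 highest in fat body, the 6 called with the largest change each way in fat body late against early and the 3 in each step, without overlap, and those with neighbouring identifiers or at the rule's edges. Other names were chosen after their values were seen. Product names are matched by pattern in 8 marker lists and 5 groups. RefSeq (ASM2337382v1) gave names only. Alternatives were other pseudocounts, filters and scalings, fat body libraries alone, limma without moderation by trend, replicate blocks, other limits of the rule and each library left out in turn. Leaving out ovary libraries for the number of genes that met the rule was added after seeing the data.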

Additional observations from a re-analysis of the deposited data

Results flagged for a closer look

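Of the 38 genes called higher late in the fat body, 21 had fat body libraries without overlap, and in 20 of those every late ovary library was also below every early one. Over all genes tested, the late fat body libraries lay wholly above the early ones for 4.42%. All 4 early ovary libraries were above all 4 late ones for 32.3% of genes tested. The rule used the ovary values, and the ovary order held for 330 of the unnamed genes that met it. Nothing is therefore read from the count of 20. Of the genes without overlap in the fat body, the 6 with the largest fat body changes are given here. Those changes, days 9 and 13 against days 1 and 5, were 3.94 for MSTRG.8728, 3.26 for MSTRG.7435, 2.77 for MSTRG.3477, 2.41 for MSTRG.3972, 2.25 for MSTRG.7433 and 2.20 for MSTRG.5780, on the log2 scale. The difference between the tissues was not tested, because the ovary fall is what chose these genes.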

How the results depend on the processing

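The number of genes that met the rule was 404, between 398 and 414 without any 1 ovary library, 265 with median-of-ratios scaling, 645 at 5 FPKM, 233 at 20 FPKM and 258 at 8-fold. Of 30 calls of single genes in the fat body, 22 held under all 25 alternatives, 36 single calls were lost and none changed direction. For days 9 and 13 against 1 and 5, 63 genes were higher with median-of-ratios scaling, and counts without 1 library ran from 25 to 42 higher and from 107 to 137 lower. For day 5 against 1, 15 were higher with fat body libraries alone and 41 with median-of-ratios scaling, and without 1 library 10 to 34 were higher and 33 to 82 lower. For day 9 against 5, 19 were lower with fat body libraries alone, and without 1 library 17 to 29 were higher and 16 to 49 lower. For day 13 against 9, 1 was higher with fat body libraries alone, 12 with median-of-ratios scaling and 3 with a pseudocount of 0.1, 15 were lower with fat body libraries alone and 20 with quantile normalization, and without 1 library 2 to 7 were higher and 16 to 38 lower. The cause was not tested, except that fits to fat body libraries alone hold fewer libraries and 362 of the genes.

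Same-numbered libraries showed no consistent shared deviation: their deviations correlated between -0.149 and 0.146 over 28 pairs of groups. Whether the replicate numbers pair libraries by collection cannot be told from these values. With the replicate block as a term, 37 genes were higher and 131 lower late against early. With it as a random block, 37 and 127 were, and 3 were higher at day 13 against day 9. Read totals are unknown, which limits statements on genes near 0.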
